A study of Mus musculus with 46 samples.

Results

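The genes described here encode enzymes that modify RNA, most of them acting on tRNA or rRNA. They are the protein-coding genes of 2 expression tables whose names belong to the pseudouridine synthase (Pus, Trub, Rpusd), NSUN, TRMT, METTL, ALKBH, dihydrouridine synthase (Dus), Elongator (Elp), tRNA deaminase (Adat) and queuosine transglycosylase (Qtrt) families. The H/ACA core proteins Dkc1, Gar1, Nhp2 and Nop10 were added to them by name. There were 80 such genes among the 14888 genes listed in either table. The table of the lines held all 80 among 14360 genes, and the table of the Max addback experiment held 78 among 14056, without Mettl24 and Mettl7a3. A further 9 protein-coding genes with such names in the GENCODE vM21 annotation, Pus3 and Adat3 among them, were not analysed here. The METTL and ALKBH families also hold enzymes of mRNA, DNA and protein, and these were kept because the choice went by name.

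RNA modification enzymes change single nucleotides after transcription. Pseudouridine synthases turn uridine into its isomer pseudouridine, either alone or, in the H/ACA particles, guided by a small nucleolar RNA. Methyltransferases, Elongator and the deaminases alter tRNA bases that stabilise its fold or read the codon. MAX is the obligate partner of MYC, and MYC:MAX dimers bind the E-box CACGTG in promoters of growth genes, among them many genes of ribosome and tRNA production.

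The study made mice in which conditional alleles were deleted in neuroendocrine cells by a tamoxifen-inducible Ascl-CRE, and profiled tumours and cultured thyroid cells from them. RNA-seq values were used for 14 libraries of cultured cells out of 46 samples. RPM lines (4 libraries) were labelled mutant for Rb, p53 and Max, and RP lines (4 libraries) for Rb and p53 only. Cells with the Rb/p53/Max mutant genotype were transduced with a vector expressing Max (Max addback, 3 libraries) or with the empty vector (3 libraries). All 4 groups are therefore labelled mutant for Rb and p53, and the library names tie the addback experiment to the line of RPM replicate 2. Whether the addback and empty vector cells are of the same line cannot be told from the values, as the Y-linked genes show. In the lines each library name carries its own animal number, so p-values there measure the spread between lines. The addback and empty vector libraries are numbered under 1 line name, and whether they came from separate cultures is not said. Their p-values measure the spread between these libraries, which may be technical. The question was how loss of Max alters transcription, and the addback asked it in the reverse direction in cells labelled as 1 genotype.

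Libraries held 6738614 to 8498396 reads over the listed genes, and reads outside these genes were not counted. Thus 3 reads in a library correspond to 0.353 to 0.458 CPM, the read count scaled to library size. Max itself was at 80.91, 102.7, 68.88 and 100.5 CPM in RPM lines, against 65.21, 44.73, 50.84 and 57.47 CPM in RP lines. It was at 250.7, 249.6 and 220.3 CPM with addback, against 86.32, 83.11 and 96.03 CPM with empty vector (log2 change 1.43, SE 0.09, limma adjusted p = 5.75e-07). Max RNA was thus not lower in RPM lines, and reads counted over the whole gene do not check the loss of a deleted exon. Rb1 averaged 169 CPM in RPM and 240 CPM in RP lines, and 211 CPM with addback and 212 CPM with empty vector. Trp53 averaged 13.7, 11.5, 10.8 and 12.6 CPM in the same groups, so the shared genotype is not checked by reads either. The library name of RPM replicate 1 carries an animal number that tumour samples of the Rb/p53 genotype carry too. Whether that line is mutant for Max is therefore not settled by the labels, and its cell label was kept. C cell and neuroendocrine markers (11 of 12 listed) summed to 5250 to 24620 CPM in RPM lines and 5435 to 7760 CPM in RP lines, while the thyroid follicular genes Tg, Tshr and Foxe1 were listed in neither table. Of 7 leukocyte markers only Cd68 was listed, at no more than 4.331 CPM in any library. Markers differed in both comparisons. With addback 4 Y-linked genes summed to 0 to 0.257 CPM, against 410.1 to 422.8 CPM with empty vector. RPM replicate 2, the line named in the addback libraries, had 275.1 CPM of them, so the addback libraries lack reads that both the empty vector libraries and the named parent line have. A difference between lines and the return of Max therefore cannot be told apart in any addback result. Y-linked sums in the lines were 109.8, 275.1, 0 and 254.4 CPM in RPM lines and 198.2, 0.1202, 105.8 and 161 CPM in RP lines. The 5 epithelial markers summed to 406.1, 449.2 and 497.5 CPM with addback, against 61.31, 54.69 and 58.31 CPM with empty vector. In RPM lines they summed to 3542, 121.8, 1035 and 649.9 CPM, against 3147, 2355, 1735 and 1676 CPM in RP lines, so that RPM replicate 1 was the highest and the other RPM lines lay below every RP line. The C cell and neuroendocrine sum was 9994 to 11500 CPM with addback and 5348 to 5690 CPM with empty vector. The part of these markers in the results was not tested. In bulk RNA, fewer cells of a kind and less RNA per cell cannot be told apart.

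E-box matches in the promoters are printed because CACGTG is the sequence that MYC:MAX reads. RefSeq promoters (GRCm38.p6, 250 bases before to 50 after the start) were matched for 68 of the 80 genes. The motif CACGTG, which is its own reverse complement, lay in 9 of the 68 (13.2%), against 11.5% of the promoters of genes in either table and 8.09% of all promoters. Of the enzyme genes that fell with Max addback 6 of the 27 with a promoter held it (22.2%), and of those in the same table that were not called lower, 3 of 40 (7.5%). The share among all genes that fell with addback was not computed, so these shares do not set the enzymes apart. As a second motif, TATAAA on either strand lay in 0 of those 27, 3 of those 40 (7.5%) and 8.62% of promoters of genes in either table. Each sequence is 30 bases, 5′ to 3′ on the strand of the gene, with the E-box in capitals, for the 6 genes that fell.
Pus7, chr5:23783666-23783695, minus strand: ggcgcagcgccgCACGTGtgcgagcccggc
Mettl1, chr10:127041950-127041979, plus strand: agctcggctctcCACGTGgactgcgtggca
Pusl1, chr4:155891718-155891747, minus strand: tcgaccgcgggcCACGTGcaagcgccccgc
Pus1, chr5:110780576-110780605, minus strand: tccgccttcgtgCACGTGgtcagcttcggg
Trmt61a, chr12:111678118-111678147, plus strand: ccgccgtggagcCACGTGtggagccgggag
Trmt10a, chr3:138143772-138143801, plus strand: cccctcgccactCACGTGccgtcttccaga
In 4 of these promoters, those of Pus7, Mettl1, Pusl1 and Trmt61a, the E-box began 28, 30, 27 and 25 bases after the start base. That of Pus1 began 3 or 22 bases after its alternative starts, and that of Trmt10a began 15 bases before its start. Of the 3 genes with an E-box that were not called lower, Rpusd4 was lower in every addback library (log2 change -0.36, limma adjusted p = 0.0527). It was called lower with library weights and without addback replicate 3, so the shares of 22.2% and 7.5% depend on the cutoff. These 3 genes are given for comparison, the nearest match to the start for each.
Qtrt1, chr9:21411822-21411851, plus strand: gtggtctcaggcCACGTGgttccgggactg
Rpusd4, chr9:35267808-35267837, plus strand: aggctacctgccCACGTGatcagcagggcc
Alkbh7, chr17:56997159-56997188, plus strand: tggctttgccccCACGTGacctccagcctc
A match describes the letters in the window and says nothing about binding in these cells.

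Per length of transcript, the enzymes spanned a wide range of levels. Their median was 6.77 RPKM in RPM lines and 5.65 RPKM in RP lines, against medians over all genes of 7.24 and 7.18 RPKM. With addback the median was 6.45 RPKM and with empty vector 8.17 RPKM, where all genes had 7.26 and 7.08 RPKM. The H/ACA protein Nop10 led in RPM lines with 48.8 ± 7.84 RPKM (SD, n = 4), followed by Nhp2 with 45.9 ± 12 and by Alkbh5, the mRNA demethylase, with 43.0 ± 4.23. In RP lines Alkbh5 led with 36.2 ± 6.59 RPKM, before Elp3 with 33.5 ± 1.81 and Mettl9 with 32.5 ± 5.83, and these neighbours lay within their spread. Nop10 also led with addback, at 43.1 ± 5.89 RPKM, and with empty vector, at 67.3 ± 3.92 RPKM (SD, n = 3 each). Pus7 ranked 33 of 80 in RPM lines at 9.36 RPKM and 59 of 80 in RP lines at 3.35 RPKM. The lowest means in RPM lines were those of Mettl7a3 at 0.396, Mettl24 at 0.566 and Nsun7 at 0.577 RPKM.

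Spread between libraries was smaller in the addback experiment than between lines. Among enzymes with a mean of at least 5 CPM, the median coefficient of variation was 15.8% in RPM lines and 18.0% in RP lines, and 10.4% with addback and 5.15% with empty vector. Over all genes it was 21.9%, 19.4%, 10.3% and 5.17% in the same groups. Chi-square per degree of freedom, which grows as libraries differ beyond counting error, was 20.7 to 77.9 between lines of a group. Between empty vector libraries it was 1.76 to 1.9, and between addback replicates 1 and 2 it was 1.83. Addback replicate 3 stood apart from them, at 15.5 and 13.2. Mettl7a1 varied most between lines, with 77.3% in RPM lines and 99.8% in RP lines. It stood at 11.9, 67.3, 26.5 and 21.1 CPM in RPM lines and at 21.5, 86.8, 15 and 16 CPM in RP lines, so that replicate 2 of each genotype was the highest of its group.

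Between RPM and RP lines the enzymes lay higher in RPM lines more often than lower, but only Pus7 and Mettl1 passed the test. At a limma adjusted p under 0.05, 2 of the 80 were higher and 0 were lower, where 0.209% of all genes were higher and 0.125% lower. At an unadjusted p under 0.05, 19 were higher and 3 lower, against 7.56% and 8.34% of all genes. edgeR's quasi-likelihood test on the reads called 0 of the 80, where it called 0.00696% of all genes higher and 0.0139% lower. DESeq2 called 7 of them higher and 1 lower, against 2.44% and 2.14% of all genes. RPM and RP libraries did not overlap for 16 enzymes with the higher values in RPM lines (4.97% of all genes were so) and for 3 with the lower values there (4.39% of all genes). The median log2 change was 0.21 with 61 of 80 above 0, and that of all genes was -0.01 with 49.5% above 0. It was 0.22 without RPM replicate 1 and 0.16 without RPM replicate 2, the line of the addback experiment.

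With Max addback the enzymes fell far more often than they rose. Of the 78, 32 fell (41.0%) and 5 rose (6.41%), where 25.5% of all genes fell and 27.7% rose. The other 41 did not pass the test. At an unadjusted p under 0.05, 38 were lower and 7 higher, against 28.7% and 30.2% of all genes. On the reads, edgeR called 33 lower and 5 higher (25.2% and 27.7% of all genes), and DESeq2 called 29 lower and 2 higher (22.5% and 25.2%). Addback and empty vector libraries did not overlap for 38 with the lower values with addback (48.7%, against 30.2% of all genes) and for 8 with the higher values there (10.3%, against 31.7%). The median log2 change was -0.26 with 24 of 78 above 0, and that of all genes was 0.00 with 49.9% above 0. Leaving out any 1 library left 25 to 43 that fell, and 23 of the 32 did so in every one of 14 alternatives. The calls not kept in all were those of Alkbh5, Mettl2, Mettl4, Mettl16, Mettl26, Nsun4, Nsun5, Trmt10a and Trmt1l, each lost without at least 1 library. None of the 5 that rose did so in every alternative, and without replicate 3 of the empty vector 0 of the 78 rose.

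**Figure D1:**
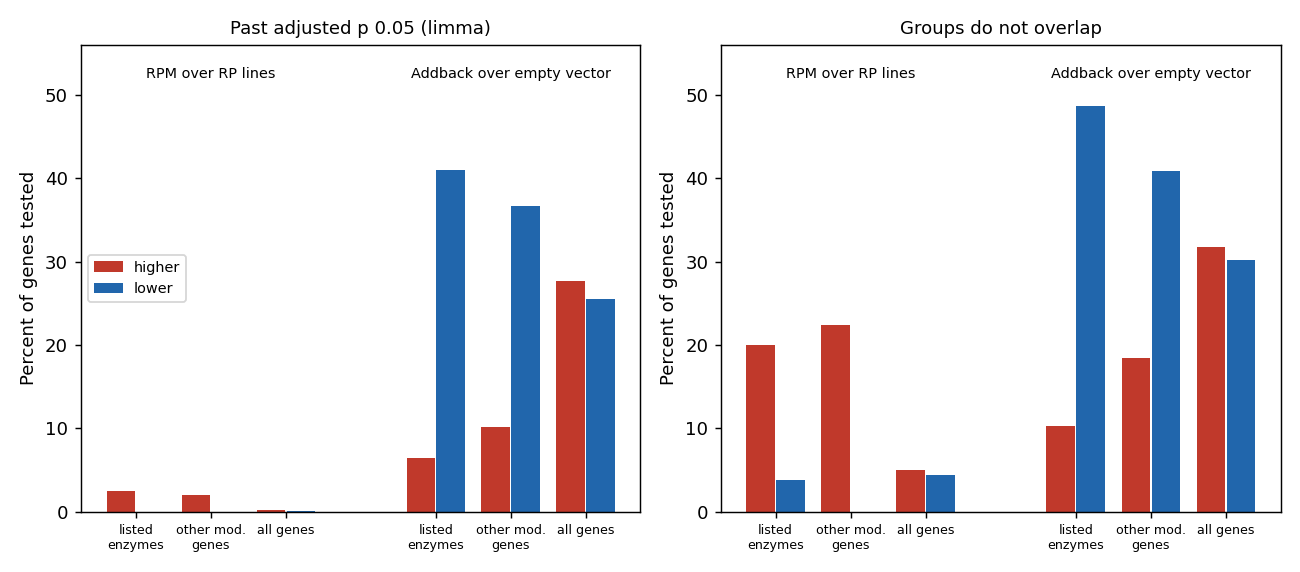
Percent of genes past a limma adjusted p of 0.05 (left) and percent whose libraries did not overlap between groups (right), for the listed enzymes (80 and 78 genes), 49 other modification genes and all genes of each table. Red bars are higher and blue bars lower in RPM lines or with addback; with addback 41.0% of the listed enzymes fell and 6.41% rose, against 25.5% and 27.7% of all genes.

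Pus7 is a stand-alone pseudouridine synthase of tRNA and mRNA, encoded at chr5:23740648-23783711 on the minus strand with no exon shared with another gene. It stood at 64.8, 96.1, 82.4 and 67.1 CPM in RPM lines, against 33.4, 21.8, 21.9 and 34 CPM in RP lines. Every RPM library lay above every RP library (log2 change 1.46, SE 0.21, limma adjusted p = 0.0381). With addback it stood at 43.9, 41.6 and 40.7 CPM, against 80.7, 88.8 and 80.8 CPM with empty vector. Every addback library lay below every empty vector library (log2 change -0.97, SE 0.08, limma adjusted p = 5.71e-06). An exact two-sided permutation test of Pus7 alone gave p = 0.0286 in the lines and p = 0.1 with addback, which are the smallest values these designs allow. The authors' deposited table also calls Pus7 higher in RPM lines (log2 1.48, FDR 0.00306) and lower with addback (log2 -0.99, FDR 5.89e-16). In the lines the call was lost in edgeR's test (adjusted p = 0.0658) and with the replicate number as a block. It was also lost without any 1 of the 8 libraries except RPM replicate 1 (adjusted p = 0.0247 without it). Over all alternatives the adjusted p ran over 3.43e-07 to 0.16 and the log2 change over 1.35 to 1.57.

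Of the 11 stand-alone pseudouridine synthases 6 fell with addback, 1 rose and 4 did not pass, where 25.5% of all genes fell and 27.7% rose. In the lines 10 of the 11 had a log2 change above 0, but Pus7 alone passed, and the class median was 0.51. Pusl1, a relative of Pus1, had the largest change of all the enzymes with addback, at 13.6, 13.8 and 15.7 CPM against 36.9, 34.5 and 38.9 CPM with empty vector (log2 change -1.3, SE 0.1, limma adjusted p = 4.73e-06). In the lines Pusl1 was at 25.8, 29.2, 27.0 and 18.1 CPM in RPM libraries and at 18.9, 13.3, 9.88 and 14.8 CPM in RP libraries, and the groups overlapped. Exons of Ints11 on the opposite strand cover 29.9% of the Pusl1 exons, and whether counting used the strand is not stated in the labels.

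Trub1, the synthase of the conserved pseudouridine in the T arm of tRNA, was at 43.5, 36.0, 34.7 and 36.4 CPM in RPM lines and at 25.6, 19.8, 24.4 and 23.1 CPM in RP lines. The groups did not overlap, but the test across all genes was not passed (log2 change 0.67, SE 0.15, limma adjusted p = 0.135). With addback it fell to 26.2, 22.5 and 24.5 CPM, against 44.4, 44.9 and 44.6 CPM with empty vector (log2 change -0.85, SE 0.09, limma adjusted p = 3.73e-05). Its mitochondrial relative Trub2 went the other way and was at 32.4, 29.5 and 27.4 CPM with addback, against 24.3, 25.4 and 19.1 CPM with empty vector (log2 change 0.37, limma adjusted p = 0.0325). The call on Trub2 was lost in 4 of the 6 fits without 1 library.

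Pus1, which modifies cytoplasmic and mitochondrial tRNA, was at 31.8, 30.8, 32.8 and 26 CPM in RPM lines and at 25.3, 18.4, 19.0 and 21.6 CPM in RP lines, without overlap (limma adjusted p = 0.232). With addback it was at 15.1, 13.1 and 20.9 CPM, against 28.9, 26.6 and 27.5 CPM with empty vector (log2 change -0.74, limma adjusted p = 0.00266). An annotated gene on the opposite strand covers 30.1% of its exons. Rpusd2 was at 8.39, 6.85 and 8.61 CPM with addback, against 12.1, 15.1 and 13.9 CPM with empty vector (log2 change -0.72, limma adjusted p = 0.0017). Pus7l, a relative of Pus7, was at 4.96, 5.35 and 5.01 CPM with addback, against 8.72, 8.38 and 9.31 CPM with empty vector (log2 change -0.68, limma adjusted p = 0.00138). For both, RPM and RP lines overlapped, with log2 changes of 0.61 for Rpusd2 and 0.85 for Pus7l.

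**Figure D2:**
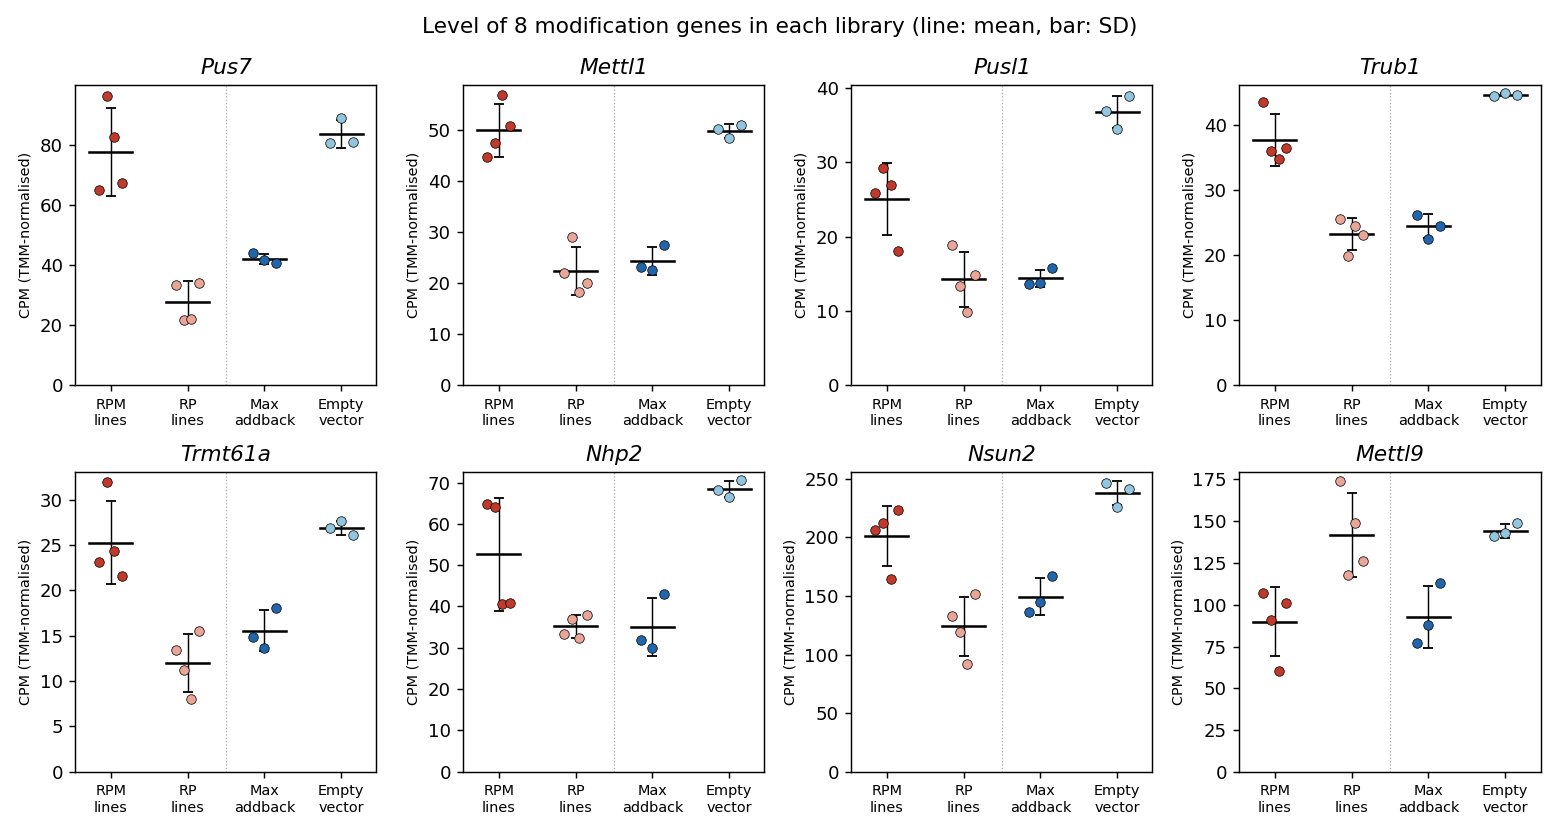
TMM-normalised CPM of 8 modification genes in each library (points), with the group mean (line) and SD (bar), for RPM lines, RP lines, Max addback and empty vector; lines and addback experiment were normalised separately. Pus7 runs over 64.8 to 96.1 CPM in RPM lines and 21.8 to 34 in RP lines, and Mettl9 is low both in RPM lines and with addback.

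The H/ACA core proteins form the particle that pseudouridylates rRNA and stabilises telomerase RNA, and all 4 had a log2 change below 0 with addback. Nop10 and Nhp2 fell (25.5% of all genes did), while the catalytic subunit Dkc1 and Gar1 did not pass the test. The difference between these genes was not tested, and Dkc1 and Gar1 were called lower with library weights and without addback replicate 3, with adjusted p down to 0.0163 for Dkc1 and 0.00479 for Gar1. Nhp2 was at 32.0, 30.0 and 43.1 CPM with addback, against 68.3, 66.6 and 70.5 CPM with empty vector (log2 change -0.96, SE 0.13, limma adjusted p = 0.000136). Nop10 was at 41.4, 47.4 and 54.5 CPM with addback, against 77.6, 76.6 and 69.6 CPM with empty vector (log2 change -0.64, SE 0.11, limma adjusted p = 0.000671). In the lines neither passed, although both had no overlap: Nhp2 was at 64.8, 64.1, 40.6 and 40.9 CPM in RPM libraries and at 33.4, 36.9, 32.4 and 38 CPM in RP libraries.

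Nop10 was at 50.8, 66.9, 51.0 and 47.7 CPM in RPM lines and at 33.6, 31.3, 29.7 and 40.9 CPM in RP lines (log2 change 0.66, limma adjusted p = 0.154). Dkc1 was at 76.9, 78.8 and 82.6 CPM with addback, against 87.8, 83.3 and 93.7 CPM with empty vector, lower in all 3 libraries without passing the test (log2 change -0.15, SE 0.08, limma adjusted p = 0.134). Gar1 was at 19.3, 17.1 and 23.9 CPM with addback, against 22.3, 22.0 and 21.8 CPM with empty vector, and the groups overlapped (log2 change -0.14, SE 0.13). Dkc1 and Gar1 differed little in the lines as well, by a log2 change of 0.02 (SE 0.16) and 0.32 (SE 0.22), neither of which passed. The sign of the Dkc1 change in the lines flipped to -0.08 with library weights and to between -0.08 and -0.01 in 4 of the fits without 1 library.

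Among the METTL enzymes of tRNA, rRNA and snRNA, 4 of 9 fell with addback and 2 rose, where 25.5% of all genes fell and 27.7% rose. Mettl1, at chr10:127041414-127046365 on the plus strand, methylates guanosine in the variable loop of tRNA. It was at 44.7, 47.4, 56.9 and 50.8 CPM in RPM lines, against 22.0, 29.1, 18.3 and 20.1 CPM in RP lines, without overlap (log2 change 1.14, SE 0.18, limma adjusted p = 0.049). With addback it was at 23.1, 22.5 and 27.4 CPM, against 50.2, 48.4 and 51.1 CPM with empty vector, again without overlap (log2 change -1.01, SE 0.1, limma adjusted p = 1.88e-05). Like that of Pus7, its call in the lines was lost in edgeR's test (adjusted p = 0.0734) and without any 1 library except RPM replicate 1 (adjusted p = 0.0353 without it). It was also lost with the replicate number as a block and with a smaller pseudocount of 0.25 (adjusted p = 0.0518). Its adjusted p ran over 2.9e-06 to 0.168 in all alternatives. The authors' deposited table does not call Mettl1 in the lines (log2 1.16, FDR 0.102) and calls it lower with addback (log2 -1.04, FDR 4.52e-15).

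Its non-catalytic partner Wdr4 stands outside the name pattern. Wdr4 was at 34.3, 38.1 and 35.3 CPM with addback, against 54.7, 58.5 and 56 CPM with empty vector (log2 change -0.64, SE 0.08, limma adjusted p = 0.000139). In RPM lines Wdr4 was at 50.4, 55.6, 82.7 and 62.9 CPM, against 42.8, 18.0, 26.8 and 36.7 CPM in RP lines, without overlap and without passing the test (log2 change 1.04, limma adjusted p = 0.175).

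The other METTL genes that fell with addback were Mettl2, a methyltransferase of tRNA cytidine, Mettl4, and Mettl16, which methylates a spliceosomal snRNA, with log2 changes of -0.41, -0.4 and -0.3. Each of these calls was lost in some fits without 1 library: Mettl2 without addback replicate 1 or 2 or empty vector replicate 2 or 3, Mettl4 without any 1 empty vector library, and Mettl16 without addback replicate 2 or any 1 empty vector library. Mettl15, which methylates mitochondrial rRNA, rose with addback and also had higher values in RPM lines. It was at 9.66, 9.34 and 12.9 CPM with addback, against 8.0, 7.1 and 5.95 CPM with empty vector (log2 change 0.53, limma adjusted p = 0.0194). In RPM lines it was at 7.66, 7.98, 10.8 and 9.04 CPM, against 3.13, 6.13, 6.22 and 7.18 CPM in RP lines (log2 change 0.6, limma adjusted p = 0.332). Mettl6, a methyltransferase of serine tRNA, rose with addback by a log2 change of 0.34 (limma adjusted p = 0.046). Mettl5, Mettl8 and Mettl17 did not pass in either comparison.

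Of the TRMT family 5 of 15 fell with addback, 1 rose and 9 did not pass, a share near that of all genes that fell (25.5%, with 27.7% rising). Trmt1, a guanosine dimethyltransferase of tRNA, was at 67.9, 57.9 and 70.3 CPM with addback, against 122, 123 and 119 CPM with empty vector (log2 change -0.89, SE 0.09, limma adjusted p = 1.88e-05). RPM and RP lines overlapped for Trmt1, with RP replicate 1 at 74.1 CPM and the other RP libraries at 44.6 to 62.5 CPM. Trmt61a and Trmt6 are the catalytic and the partner subunit of the methyltransferase that acts on adenosine in the T loop, and both fell. Trmt61a was at 14.9, 13.7 and 18.1 CPM with addback, against 26.9, 27.7 and 26.1 CPM with empty vector (log2 change -0.76, limma adjusted p = 0.00049).

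Trmt6 was at 50.7, 51.4 and 44.5 CPM with addback, against 61.6, 65.6 and 65.6 CPM with empty vector (log2 change -0.39, limma adjusted p = 0.00374). In the lines both subunits had no overlap and did not pass: Trmt61a was at 23.1, 31.9, 24.4 and 21.6 CPM in RPM lines and at 13.4, 11.2, 8.05 and 15.5 CPM in RP lines (log2 change 1.03, limma adjusted p = 0.141). Trmt10a, a guanosine methyltransferase of tRNA, and Trmt1l, a relative of Trmt1, fell by 0.37 and 0.32 on the log2 scale. Trmt2a, a uridine methyltransferase of tRNA, rose by a log2 change of 0.2 (limma adjusted p = 0.0455) and is overlapped over 16.5% of its exons by Dgcr8 on the opposite strand. In the lines 13 of 15 TRMT genes had a log2 change above 0, and none passed.

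All 6 NSUN genes, which encode cytosine methyltransferases, had a log2 change below 0 with addback, and 4 passed (25.5% of all genes fell). Nsun2, the broad cytosine methyltransferase of tRNA, was at 136, 145 and 167 CPM with addback, against 246, 226 and 241 CPM with empty vector (log2 change -0.67, SE 0.09, limma adjusted p = 0.000147). In RPM lines it was at 206, 212, 164 and 223 CPM, against 133, 119, 91.6 and 152 CPM in RP lines, without overlap (log2 change 0.71, limma adjusted p = 0.149). Nsun7 fell by 0.67 on the log2 scale with addback, and Nsun4 (mitochondrial rRNA) and Nsun5 (large-subunit rRNA) fell by 0.37 and 0.28. Nsun3 and Nsun6 did not pass in either comparison.

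Of the 4 dihydrouridine synthases, Dus4l fell with addback and Dus1l rose, where 25.5% of all genes fell and 27.7% rose. Dus4l was at 13.2, 11.5 and 14 CPM with addback, against 25, 27.7 and 23.4 CPM with empty vector, without overlap (log2 change -0.92, SE 0.12, limma adjusted p = 0.000126). In RPM lines Dus4l was at 11.5, 14.7, 10.1 and 11.1 CPM, against 10.6, 6.13, 5.12 and 8.36 CPM in RP lines, where RP replicate 1 lay above the lowest RPM library. Dus1l was at 60.8, 57.9 and 71.2 CPM with addback, against 56.5, 50.7 and 49.0 CPM with empty vector (log2 change 0.27, limma adjusted p = 0.0419). Dus2 and Dus3l did not pass in either comparison.

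Elongator adds a carboxymethyl group to the wobble uridine of tRNA. Its subunits Elp4 and Elp6 fell with addback (25.5% of all genes did), while its catalytic subunit Elp3 did not pass (log2 change 0.03). Elp6 was at 10.6, 9.96 and 11.8 CPM with addback, against 15, 15.5 and 16.6 CPM with empty vector (log2 change -0.51, SE 0.12, limma adjusted p = 0.00511).

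In the lines Elp6 was at 11.7, 11.5, 10.4 and 8.55 CPM in RPM libraries and at 13.1, 12.3, 12.2 and 12.4 CPM in RP libraries, with every RPM value lower and no call (log2 change -0.23, SE 0.2, limma adjusted p = 0.581). Elp4 fell by 0.37 on the log2 scale with addback. Kti12, an Elongator regulator outside the name pattern, was at 18.1, 19.9 and 21.6 CPM with addback, against 39.9, 36.2 and 39.8 CPM with empty vector (log2 change -0.93, limma adjusted p = 4.27e-05). Alkbh8, which completes the Elongator modification by methylation, was at 91.3, 91.5 and 75.3 CPM with addback, against 129, 131 and 125 CPM with empty vector (log2 change -0.58, limma adjusted p = 0.000448). RPM and RP lines overlapped for Alkbh8 (log2 change 0.31, limma adjusted p = 0.424).

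The 4 deaminase and queuosine genes did not pass in either comparison. Qtrt2, a subunit of the transglycosylase that inserts queuine into the anticodon, was at 39.7, 38.9 and 31.2 CPM with addback, against 36.9, 37.9 and 36.6 CPM with empty vector, where the sign of the log2 change (-0.03) flipped with library weights (0.06) and without addback replicate 3 (0.08). In RPM lines Qtrt2 was at 36.5, 44.0, 55.6 and 44.5 CPM, against 32.4, 26, 28.8 and 39.8 CPM in RP lines. These groups overlapped (log2 change 0.5, limma adjusted p = 0.27).

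Of the ALKBH dioxygenases 4 of 8 fell with addback (25.5% of all genes did): Alkbh8, Alkbh1, which acts on tRNA, Alkbh5 and the DNA repair enzyme Alkbh2. Alkbh2 was at 3.81, 2.86 and 3.34 CPM with addback, against 5.29, 6.96 and 8.86 CPM with empty vector (log2 change -0.87, SE 0.19, limma adjusted p = 0.00313). In RPM lines it was at 10.5, 8.1, 11.6 and 9.66 CPM, against 7.58, 6.85, 5.73 and 6.12 CPM in RP lines, without overlap and without a call. Exons of Usp30 on the opposite strand cover 29.5% of the Alkbh2 exons. Mettl3, the catalytic subunit of the mRNA methyladenosine writer, was at 26.8, 29.0 and 28.3 CPM with addback, against 35.2, 36.1 and 36.5 CPM with empty vector (log2 change -0.35, limma adjusted p = 0.0075). Its partner Mettl14 did not pass (log2 change 0.07).

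In RPM lines Mettl3 was at 28.2, 31.7, 28.1 and 28.1 CPM, against 26.7, 29.3, 30.1 and 35.2 CPM in RP lines, with overlap. Of the 9 other METTL proteins in the addback table, Mettl9 and Mettl26 fell, a share near that of all genes (25.5%). In the lines Mettl7a3 was at 1.15, 0.997, 0.473 and 0.0 CPM in RPM libraries and at 12.8, 1.44, 11.9 and 3.06 CPM in RP libraries, without overlap (log2 change -2.03, SE 0.59, limma adjusted p = 0.189). The authors' deposited table calls Mettl7a3 lower in RPM lines (log2 -3.45, FDR 0.00216). It belongs to a cluster of near-identical paralogs, so its reads are uncertain.

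**Figure D3:**
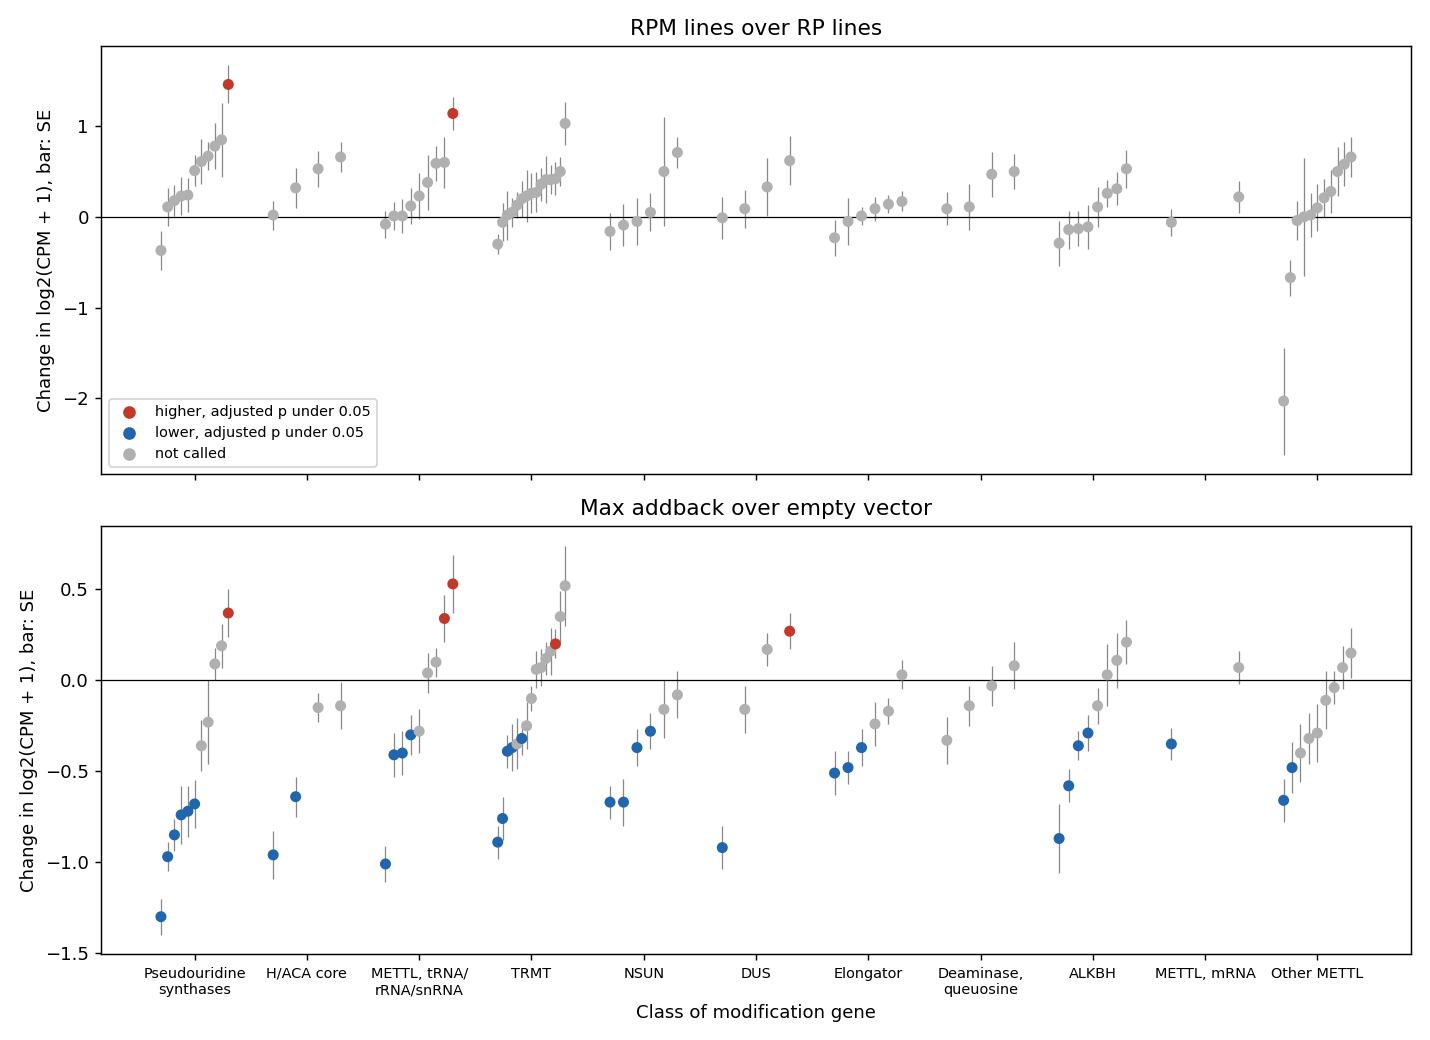
Change in log2(CPM + 1) of each modification gene (point, with its SE as a bar) by class, for RPM over RP lines (top) and Max addback over empty vector (bottom), sorted within each class. In the top panel Pus7 (1.46) and Mettl1 (1.14) are the coloured points, and in the bottom panel the lowest points are Pusl1 (-1.3), Mettl1 (-1.01) and Pus7 (-0.97).

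Mettl9, a histidine methyltransferase of proteins that the name pattern includes, had values without overlap in both settings. It was at 107, 90.7, 60.6 and 101 CPM in RPM lines, against 174, 118, 149 and 126 CPM in RP lines, every RPM library lower (log2 change -0.67, SE 0.2, limma adjusted p = 0.208). It was also lower with addback, at 77.0, 87.8 and 113 CPM, against 141, 143 and 149 CPM with empty vector (log2 change -0.66, SE 0.12, limma adjusted p = 0.00145). The lines mutant for Max were thus the low ones in 1 comparison, and the cells given Max in the other.

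To test such differences directly, the change of RPM over RP lines was set against that of empty vector over addback in a fit of all 14 libraries. It gave a difference of -1.35 for Mettl9 (SE 0.26, limma adjusted p = 0.00407) and -0.81 for Elp6 (SE 0.25, adjusted p = 0.0458). With them, 3 of the 78 enzymes differed toward lower values and 0 toward higher ones, where 5.43% and 9.17% of the 13528 shared genes did so. At an unadjusted p under 0.05, 6 enzymes differed toward lower and 4 toward higher values, among them Mettl15 by 1.26 (adjusted p = 0.0591) and Pus7 by 0.49 (adjusted p = 0.153). The share of all genes at that cutoff was not computed. Since 5.43% and 9.17% of them passed even the adjusted threshold, these counts do not set the enzymes apart. The difference of Mettl9 passed in all 15 alternatives (adjusted p 0.000745 to 0.0161). That of Elp6 was lost in 11 of them: without any 1 RPM or RP library, without addback replicate 1 or 2, and with limma-trend (highest adjusted p = 0.159). The difference of Mettl1 was 0.12 (SE 0.21, adjusted p = 0.752).

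Set side by side, the comparisons share no library, but RPM replicate 2 is the line that the addback libraries name, so they are not independent. Of the 32 enzymes that fell with addback, 25 had a log2 change above 0 in RPM lines (78.1%), 12 of them without overlap between RPM and RP libraries (37.5%), and their median change was 0.46. Of all 3393 genes that fell and were listed in both tables, 60.3% had a change above 0 in the lines, 9.64% were without overlap, and the median was 0.1. The 2 among the 32 enzymes with no overlap and lower values in RPM lines were Mettl9 and Elp6. Of the 5 enzymes that rose with addback, 4 had a change above 0 in the lines (80.0%), with a median of 0.09. Of all 3799 genes that rose and were listed in both tables, 42.2% had a change above 0 there, with a median of -0.1.

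**Figure D4:**
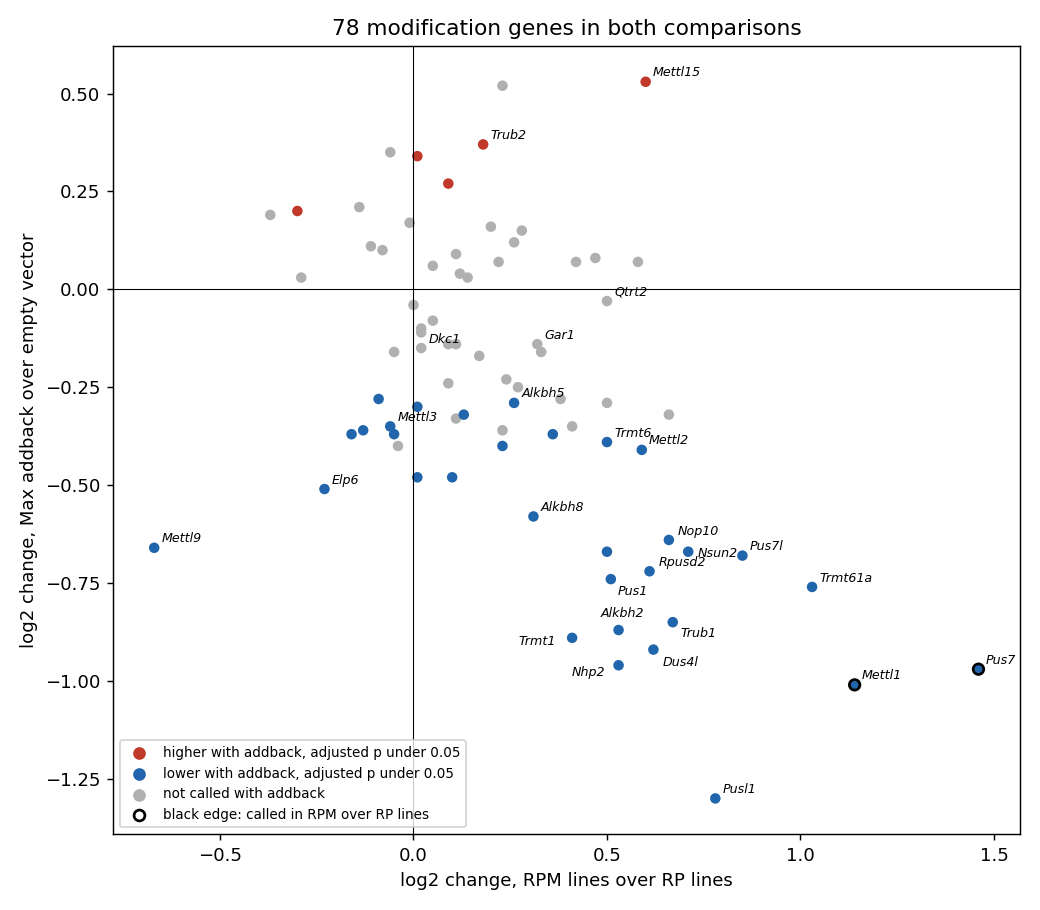
Log2 change of 78 modification genes in RPM over RP lines (horizontal) and in Max addback over empty vector (vertical), with colour for the addback call and a black edge for the 2 genes called in the lines. Of the 32 blue points 25 lie right of 0 (78.1%, against 76.2% of all 80 enzymes), with Pus7 and Mettl1 at the lower right and Mettl9 (-0.67 and -0.66) at the lower left.

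Beyond the name pattern, 49 further genes of tRNA and rRNA modification were listed in both tables. With addback 18 of them fell (36.7%, against 25.5% of all genes) and 5 rose (10.2%, against 27.7%). In the lines 1 was higher (2.04%, against 0.209%) and 0 were lower (0.125% of all genes) at a limma adjusted p under 0.05. At an unadjusted p under 0.05, 10 were higher and 1 lower, against 7.56% and 8.34% of all genes. Their median log2 change was 0.23 in the lines and -0.12 with addback. Ftsj3, an rRNA methyltransferase, was at 143, 140, 139 and 132 CPM in RPM lines, against 64.7, 72.4, 46.7 and 69.5 CPM in RP lines (log2 change 1.14, SE 0.15, limma adjusted p = 0.0338). With addback it was at 80.1, 90.2 and 79.9 CPM, against 128, 124 and 126 CPM with empty vector (log2 change -0.59, SE 0.08, limma adjusted p = 0.000126).

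Nat10, the acetyltransferase of rRNA and tRNA cytidine, was at 63.4, 61.1 and 61.0 CPM with addback, against 123, 117 and 122 CPM with empty vector (log2 change -0.96, SE 0.07, limma adjusted p = 2.46e-06). It was at 58.7, 93.6, 84.3 and 80.0 CPM in RPM lines and at 52.7, 47.3, 41.8 and 54.5 CPM in RP lines, without overlap and without a call. Nop58, a core protein of the box C/D methylation particle, and Nolc1, a chaperone of nucleolar particles, fell with addback by 0.76 and 0.66 on the log2 scale. Those that rose with addback were Wdr6, partner of the tRNA methyltransferase Ftsj1, by a log2 change of 0.54 (limma adjusted p = 0.000432), the sulfur transfer genes Mocs3 (0.69), Urm1 (0.44) and Trmu (0.5) of tRNA thiolation, and Lage3 (0.41).

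The labels and headers do not state the threshold behind the calls in the authors' deposited table, so its counts cannot be set against those of limma. With addback it calls 16 lower and 1 higher (13.1% and 18.9% of all genes), and 1 lower and 1 higher in the lines (2.47% and 1.72%). The largest deposited log2 changes with addback are those of Pusl1 (-1.35), Alkbh2 (-1.07), Mettl1 (-1.04), Pus7 (-0.99), Dus4l (-0.98) and Nhp2 (-0.97). Mettl15 (0.59) is the enzyme that it calls higher.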

How the data were processed

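RNA-seq of 14 libraries of cultured mouse thyroid cells was used, and 32 tumour libraries were not analysed here. Per the submitters' processing notes, the tools were bcl2fastq 1.8.4, TopHat2 2.1.0, HTSeq 0.6.1 and edgeR, and the build was mm10. For the annotation release, the use of strand in counting and the choice of listed genes, nothing is given in the sources used here. The deposited values, per the file headers, are a signal in CPM with TMM normalisation for each gene in each library, in 2 tables normalised separately. The authors also deposited RPKM values, log2 fold changes, p-values with FDR, and their calls as a score of -1, 0 or 1.

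In every library 100% of the CPM values were whole multiples of 1 read, with a tolerance of 0.01 read, and the recovered reads served the count tests. Intervals and floors from reads cover counting error only. limma-trend (limma 3.58.1, R 4.3.3) was fitted to log2(CPM + 1) over all genes of each table, RPM against RP lines and addback against empty vector, with two-sided Benjamini-Hochberg adjusted p under 0.05. Fold changes are on that scale, which understates changes of low genes. The tables hold normalised values, so the count test named for raw counts was replaced by limma. The difference between comparisons used limma voomWithQualityWeights on the reads of 13528 shared genes. Alternatives were a pseudocount of 0.25, a mean CPM of at least 1, DESeq2 size factors, TMM recomputed, edgeR 4.0.16 and DESeq2 1.42.0 on the reads, library weights, the replicate number as a block, and leaving out each library. The fits were also run on simulated counts with the same dispersion for every gene, which does not measure how they perform on these data.

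Libraries held 6738614 to 8498396 reads over the listed genes. Coordinates come from GENCODE vM21 (GRCm38, which is mm10) and promoters from RefSeq GRCm38.p6. Exons of another gene overlapped 30 of the 80 enzymes, 17 of them over more than 10% of their length. Genes named with values in every library were those past the threshold in the lines, the 12 with the largest change among those past it with addback, the smallest p of each class, Pus7, the H/ACA proteins, those past the threshold of the difference, and the 6 with the smallest p among other modification genes. Mettl2, Mettl7a1, Mettl7a3, Mettl15, Trmt6, Trub2 and Dus1l were named after their values were seen. For 1 enzyme that enters the counts, single values are not reported here. The enzymes and gene lists were chosen with earlier results of these data known.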

Additional observations from a re-analysis of the deposited data

Results flagged for a closer look

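The changes of Mettl9 and Elp6 differed between the 2 settings in the direct test over all 14 libraries, where the change of empty vector over addback was taken from that of RPM over RP. The difference was -1.35 for Mettl9 (SE 0.26, limma adjusted p = 0.00407) and -0.81 for Elp6 (SE 0.25, adjusted p = 0.0458). That of Mettl9 passed in all 15 alternatives, while that of Elp6 was lost in most of them (highest limma adjusted p = 0.159). Of the 78 enzymes 3 differed toward lower values, where 5.43% of all shared genes did so. Both genes were lower in every RPM library than in every RP library and lower in every addback library than in every empty vector library. Mettl3 in RPM replicate 2 stood apart from its group at 31.7 CPM, with the other RPM lines at 28.1 to 28.2 CPM. Chance alone marks some groups of this size in this way.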

How the results depend on the processing

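In the lines 48 genes were called, and this count moved to 3 with edgeR, 658 with DESeq2, 107 with library weights, and 0 to 261 without 1 library. The enzymes called higher there (2) were 1 with a pseudocount of 0.25, 0 with edgeR (21 at an unadjusted p under 0.05), 7 with DESeq2, and 0 to 2 without 1 library. DESeq2 called 1 lower. The other modification genes called higher (1) were 0 with edgeR, 4 with DESeq2, and 0 to 2 without 1 library. With addback, 2 enzymes were higher with DESeq2 and 0 to 5 without 1 library, and 25 to 43 were lower without 1 library (43 without addback replicate 3, all 32 among them). The other genes that fell ran over 15 to 23 and those that rose over 5 to 6. All addback calls ran over 6166 to 9035. The difference between comparisons called 1974 genes, 1195 with limma-trend and 1192 to 2374 without 1 library, with 1 to 3 enzymes lower and 0 to 1 higher. The share of higher among all calls in the lines (62.5%) was 33.3% with edgeR, 49.5% with library weights, 29.5% without RPM replicate 1 and 14.3% without RP replicate 1. The cause of these shifts was not tested. Without 1 library the log2 change ran over -0.08 to 0.1 for Dkc1 and -0.11 to 0.01 for Mettl3 in the lines, and -0.09 to 0.08 for Qtrt2 with addback. Values whose sign reversed were Dkc1 in the lines (-0.08 with library weights, -0.03 without RPM replicate 1 or 2, -0.01 without RP replicate 1, -0.08 without RP replicate 2), Mettl3 in the lines (0.01 without RP replicate 4) and Qtrt2 with addback (0.06 with library weights, 0.08 without addback replicate 3).

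Same-numbered libraries did not deviate together throughout (correlations 0.402, 0.047, 0.0121 and 0.127 in the lines, 0.0322, 0.0121 and 0.079 with addback). Pairs with unlike numbers ran from -0.288 to 0.188 in the lines and from -0.0802 to 0.0506 with addback. The replicate 1 pair of the lines thus lay above every unlike pair. Whether same-numbered libraries share a batch was not tested. With the replicate number as a block, 0 genes were called in the lines (2463 at an unadjusted p under 0.05, 18 of them enzymes), with 0 enzymes and 0 other modification genes higher. In the addback experiment 7438 genes were called, with 3 enzymes higher and 31 lower.

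Limits: the calls in the lines rest on 4 libraries a group and change with the tool. The Max genotype of RPM replicate 1 rests on its cell label, since Rb/p53 tumour samples carry its animal number too. The addback and empty vector groups differ in Y-linked genes, which RPM replicate 2, their named parent line, has, so whether both are of the same line is not known. At 3 reads a gene stands at 0.353 to 0.458 CPM, so the lowest enzymes are the least certain.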
